A study of Mus musculus with 7 samples.

Results

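Chaperones and heat shock factors were described in cancer-associated fibroblasts (CAFs) of mouse pancreatic tumors. Members were chosen by gene symbol: the numbered families Hspa, Hspb, Hspd, Hspe, Hsph, Hsp90, Dnaja, Dnajb, Dnajc, Bag, Cct and Hsf, with Cryab, Tcp1 and Stip1 added and 6 chaperones of the endoplasmic reticulum taken out (Hspa5, Hsp90b1, Dnajb9, Dnajb11, Dnajc3 and Dnajc10). This gave 74 of the 12771 genes in the count table. Most act in the cytosol, but a choice by symbol also brings in mitochondrial proteins such as Hspa9, Hspd1 and Hspe1. Only the 6 named chaperones were taken out, so other proteins of the endoplasmic reticulum may remain.

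To ask how Brca2 silencing in cancer cells bears on neighbouring fibroblasts, KPC cells, a mouse pancreatic cancer line, were infected with a lentiviral vector, selected with puromycin and placed in the pancreas of syngeneic C57BL/6 males aged 8 weeks. The vector held a short hairpin RNA against Brca2 in one group (shBrca2) and a non-targeting hairpin in the other (shControl), so the hairpin sits in the cancer cells and not in the CAFs. Tumors were taken 2 to 3 weeks later, and live CD45-/CD31-/EpCAM-/PDPN+ cells were sorted. Poly(A) RNA was read at the 3' end in 3 shControl (replicates 1, 2 and 4) and 4 shBrca2 (replicates 1 to 4) CAF libraries. Each came from a separate mouse.

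Total counts ran from 1898679 to 5990579 per library, and all libraries differed by more than counting error. Brca2 transcript, which does not measure the knockdown here, was between 8.64 and 17.7 normalized counts in all libraries. Of 11 listed fibroblast markers, 2 were called lower in shBrca2 CAFs by the rule given below, beside 5.27% of all genes. The summed level of the 11 was 141876 to 160432 in shControl and 114638 to 136307 in shBrca2 libraries. Of 8 listed epithelial markers, 6 were called higher, beside 3.77% of all genes. The 8 had sums of 392 to 1195 against 1557 to 2148, while Epcam itself was not analysed here. In sorted bulk samples of this kind, a change in the share of one cell type cannot be told apart from a change in RNA per cell.

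Molecular chaperones bind unfolded proteins and help them to fold, to refold or to be degraded. Hsf1 is the main transcription factor of the heat shock response: under proteotoxic stress it forms trimers, enters the nucleus and binds heat shock elements, arrays of the 5-base unit nGAAn in alternating orientation, in the promoters of genes for HSP70, HSP90, HSP110, small heat shock proteins and J-proteins. Its activity is set mainly at the protein level, so the amount of Hsf1 mRNA need not follow it.

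Counts were normalized with the median-of-ratios size factors of DESeq2, and log2 fold changes are shBrca2 over shControl. The test and thresholds follow the methods of the study. A gene was called when the Benjamini-Hochberg adjusted p of the likelihood ratio test was under 0.1, the absolute log2 fold change over 0.5 and the mean normalized count over 5. Of the 74 members, 5 were called (6.76%), beside 9.04% of the 12768 genes tested and 9.92% of those with a mean over 5. Cryab, Hspb2, Hspb6 and Dnajc6 were higher in shBrca2 CAFs (5.41% of members, beside 3.77% of all genes), and Hspa12b was lower (1.35%, beside 5.27%). Dnajc6 passed the mean threshold only through the shBrca2 libraries, where it was high, so its call adds no independent support to that share. Without shBrca2 replicate 2, 8 members were called (10.8%), beside 8.21% of all genes, and without shBrca2 replicate 4, 3 were (4.05%), beside 5.19%. The edgeR quasi-likelihood test called 4 of the 68 members it kept, beside 10.1% of all genes, and DESeq2 without the fold threshold called 7, beside 9.52%. With size factors from total counts, which moved the median log2 fold change of all genes from 0.00 to 0.12, 7 members were called higher and 0 lower, and the split over all genes turned from 481 higher and 673 lower to 708 higher and 502 lower.

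The 71 members with a mean normalized count over 5 had a median log2 fold change of 0.07 (interquartile range -0.12 to 0.33), beside 0.00 (-0.26 to 0.27) over all genes. In 12 members (16.2%) the libraries of the groups did not overlap, 10 of them higher and 2 lower, beside 17.1% of all genes (7.79% higher and 9.3% lower). Of the 66 members over that count that were not called, 54 had a 95% confidence interval of the log2 fold change (from the standard error) that lay inside -1 to 1. Hsf2, Dnajc22 and Dnajc28 were at or under a mean of 5.

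**Figure D1:**
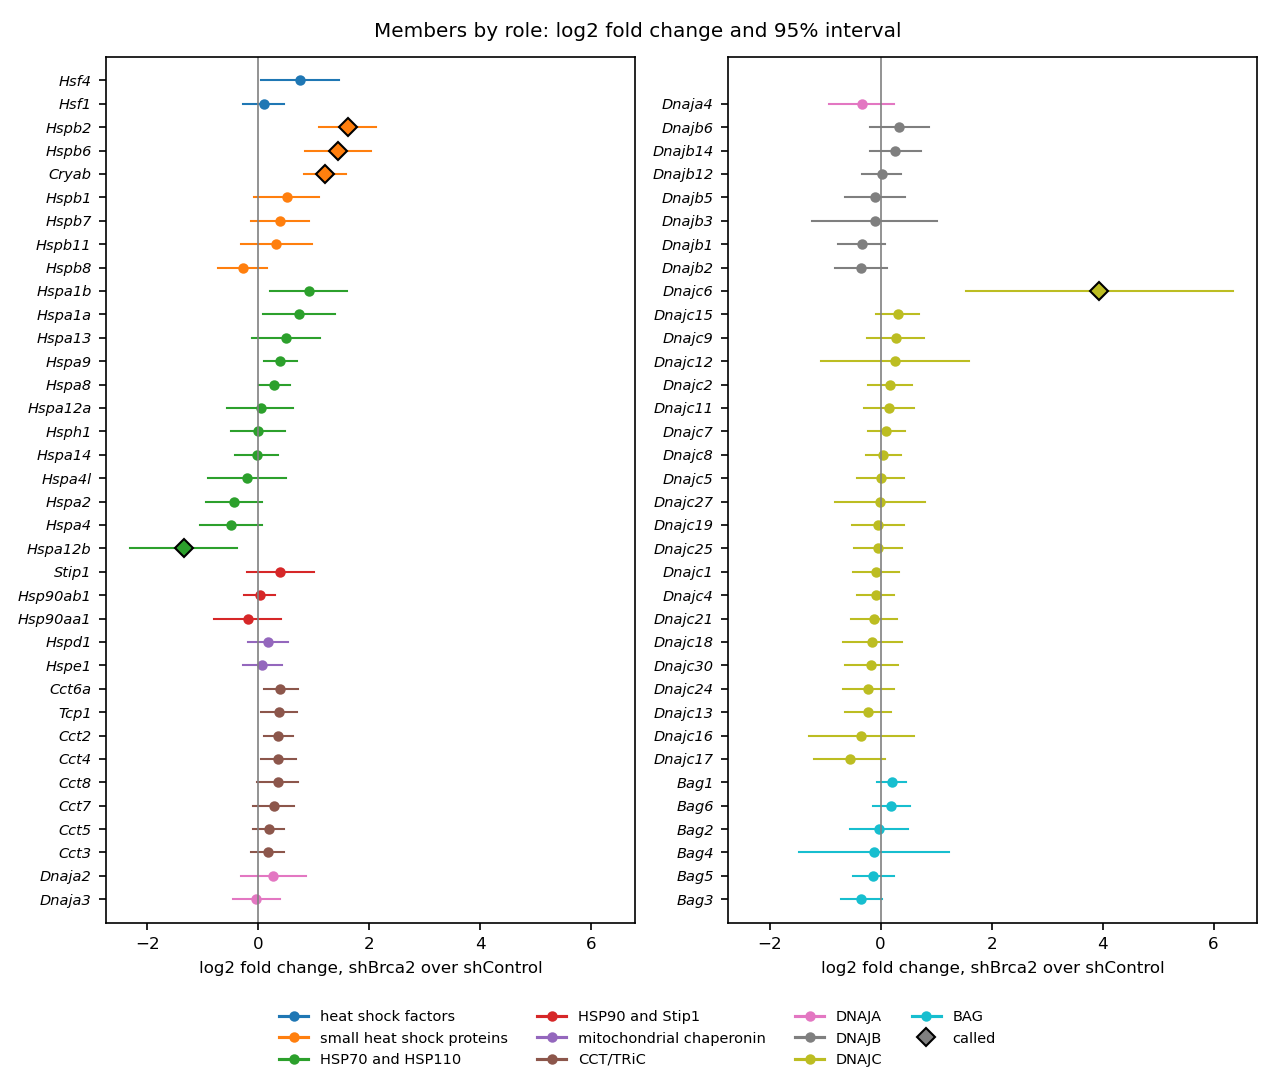
Log2 fold change (shBrca2 over shControl, horizontal axis) of the 71 members with a mean normalized count over 5, grouped by role, with bars for the 95% confidence interval. Called members stand out at the edges, with Dnajc6 at 3.94 and Hspa12b at -1.34, while the 8 CCT subunits lie together between 0.17 and 0.40. Dnajc6 passed the mean threshold only through the shBrca2 libraries.

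Hsf1 had normalized counts of 203, 297 and 239 in shControl CAFs and 287, 255, 233 and 275 in shBrca2 CAFs. The groups overlapped, with means of 247 ± 47.4 (SD, n = 3) and 263 ± 23.9 (SD, n = 4). The log2 fold change was 0.10 (SE 0.19, 95% interval -0.27 to 0.47, DESeq2 adjusted p = 0.88). It changed sign, to -0.03, when shControl replicate 1 was left out. Of the exonic bases of Hsf1, 30.1% lie in exons of Dgat1 and Bop1 on the other strand (GENCODE, GRCm39), and whether counting used strand is not given in the sources used here, so its reads may not be told apart from theirs. Hsf4, a family member best known from the lens of the eye, was 18.8, 25.3 and 14.6 in shControl and 35.3, 26.8, 43.2 and 27.4 in shBrca2 libraries. All shBrca2 values lay above all shControl values, but the log2 fold change of 0.75 (SE 0.36) did not pass the test (DESeq2 adjusted p = 0.24). Hsf2, which can form mixed trimers with Hsf1, had 0 to 6 reads per library, too few for a comparison at this depth. None of the 3 factors was called by DESeq2 or edgeR, and 1 had an unadjusted p under 0.05, beside 2262 of all 12771 genes.

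The small heat shock proteins form oligomers that hold unfolding proteins without using ATP. Of the 7 genes grouped here by symbol, 3 were called higher (Cryab, Hspb2 and Hspb6) and none lower, beside 3.77% and 5.27% of all genes. The median log2 fold change of the 7 was 0.51, with Hspb11 included by its symbol only. Cryab, the αB-crystallin gene, had 733, 924 and 1162 normalized counts in shControl CAFs and 2098, 2227, 2465 and 1845 in shBrca2 CAFs. Every shBrca2 library stood above every shControl library. The rise was 2.30-fold, a log2 fold change of 1.20 (SE 0.19, 95% interval 0.82 to 1.58, DESeq2 adjusted p = 3.8e-07). Cryab was called in all 14 alternative fits, where its log2 fold change was between 1.05 and 1.38 and its adjusted p between 1e-08 and 0.0058.

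Hspb2, a small heat shock protein of muscle, had 25.6, 46.8 and 31.1 normalized counts in shControl and 104, 107, 89.8 and 112 in shBrca2 libraries. Hspb6 (HSP20), also abundant in muscle, had 17.9, 22.8 and 20.4 in shControl and 55.9, 53.0, 53.5 and 56.9 in shBrca2 libraries. Neither gene overlapped between groups, and both rested on few reads, 30 to 183 for Hspb2 and 18 to 91 for Hspb6. Hspb2 rose 3.06-fold (log2 fold change 1.61, SE 0.27, DESeq2 adjusted p = 4.2e-07) and Hspb6 rose 2.72-fold (log2 fold change 1.44, SE 0.30, adjusted p = 1e-04). Both were called in the 14 alternatives too, Hspb2 with log2 fold changes of 1.42 to 1.87 and adjusted p of 6.8e-08 to 0.0038, and Hspb6 with 1.35 to 1.55 and 4.5e-05 to 0.059. The coefficient of variation of Hspb6 was 3.4% across shBrca2 libraries, the lowest there of the 64 members with a mean over 20 (median 12.3%), and 11.9% across shControl libraries.

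Cryab (chr9:50745951-50756636 on GRCm38.p6) and Hspb2 (chr9:50751072-50752354) lie on opposite strands of one locus. In the GENCODE annotation of GRCm39, 757 of the 1219 exonic bases of Hspb2 (62.1%) also lie in exons of Cryab, and 42.2% of the exonic bases of Cryab lie in exons of Hspb2 and other genes on the other strand. With strand handling unknown, reads there may not be told apart, and both values, above all that of Hspb2, are uncertain. The count of Cryab over that of Hspb2 was 28.6, 19.7 and 37.3 in shControl and 20.1, 20.9, 27.4 and 16.5 in shBrca2 libraries, so it was not fixed. Another overlapping gene, 2310030G06Rik, shares exonic bases with Cryab and was also higher (log2 fold change 1.40, SE 0.33, DESeq2 adjusted p = 0.0011). Hspb6 (chr7:30552535-30555443, plus strand) shares 739 of its 3924 exonic bases (18.8%) with other genes, mostly Lin37, whose log2 fold change was 0.22 (adjusted p = 0.73).

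The other 4 genes of this group were not called. Hspb1 (HSP27), which binds actin, was the most abundant of them, at 1664, 2187 and 4205 in shControl and 3580, 3673, 5186 and 2868 in shBrca2 libraries. One shControl library, replicate 4, reached the shBrca2 range. The log2 fold change was 0.51 (SE 0.30, 95% interval -0.08 to 1.10, DESeq2 adjusted p = 0.40), and without that library it was 0.99 (adjusted p = 0.0051). Hspb8, which works with Bag3 in chaperone-assisted autophagy, was 1810, 1566 and 1904 in shControl and 1379, 2070, 1124 and 1220 in shBrca2 libraries. The groups overlapped through shBrca2 replicate 2. Its log2 fold change of -0.28 (SE 0.22, adjusted p = 0.59) became -0.51 without that library (adjusted p = 0.059). Hspb7 (0.39) and Hspb11 (0.32), the latter in the group by its symbol only, were named after their values were seen, and neither passed the test.

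**Figure D2:**
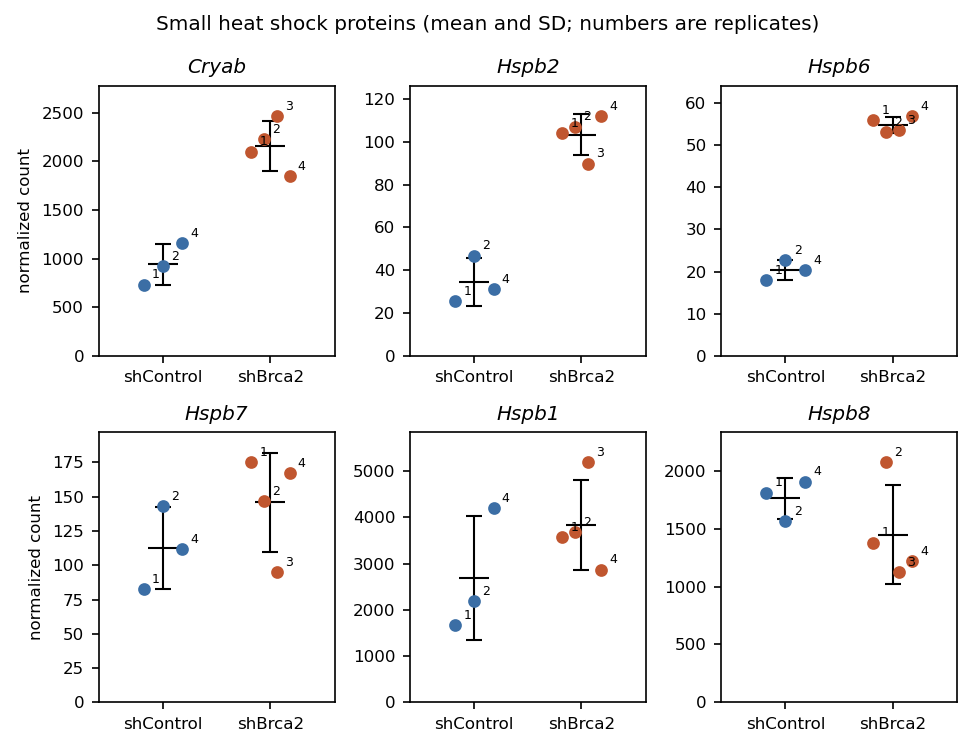
Normalized counts (vertical axes, from 0) of 6 small heat shock proteins; each point is a library with its replicate number, and lines give the group mean and SD. Cryab, Hspb2 and Hspb6 have no overlap between the 3 shControl and 4 shBrca2 libraries, whereas for Hspb1 shControl replicate 4 sits at 4205 within the shBrca2 range.

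Marker genes of other cell types were set beside these members because Cryab, Hspb2 and Hspb6 are also strong in muscle and some epithelia. The 9 listed pericyte and smooth muscle markers summed to 805, 1432 and 899 in shControl and 1813, 1578, 1359 and 1521 in shBrca2 libraries. Of them 2, Des (log2 fold change 0.86) and Notch3 (1.12), were called higher, beside 3.77% of all genes. Des alone averaged 526 and 950, within summed means of 1045 and 1568. Of the 8 with a mean over 5, 5 had a positive log2 fold change and 3 a negative one (Myh11 -0.11, Kcnj8 -0.13 and Abcc9 -0.32). Epithelial sums were higher in every shBrca2 library, as given above. The 9 listed mesothelial markers, none called, summed to 1190, 1633 and 3817 in shControl and 2354, 2755, 3017 and 2248 in shBrca2 libraries, with the highest value in shControl replicate 4, the library in which Hspb1 was also high. The part of these cells in the levels of Cryab, Hspb2, Hspb6 and Hspb1 was not tested.

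HSP70 proteins bind short hydrophobic stretches of clients in a cycle driven by ATP, and HSP110 proteins such as Hsph1 exchange their nucleotide. Of the 12 genes of this group, 0 were called higher and 1 was called lower, beside 3.77% and 5.27% of all genes. Their log2 fold changes were positive in 6 and negative in 6. The median log2 fold change of the group was 0.02. The stress-inducible pair, Hspa1a and Hspa1b, lies on the minus strand of chromosome 17 with start sites 12918 bases apart. Their RefSeq promoter windows, from 250 bases before the start to 50 after it, are shown because the pair moved together from library to library. Capitals mark a 2-unit heat shock element.
Hspa1a, chr17:34972107-34972406, GRCm38.p6, minus strand: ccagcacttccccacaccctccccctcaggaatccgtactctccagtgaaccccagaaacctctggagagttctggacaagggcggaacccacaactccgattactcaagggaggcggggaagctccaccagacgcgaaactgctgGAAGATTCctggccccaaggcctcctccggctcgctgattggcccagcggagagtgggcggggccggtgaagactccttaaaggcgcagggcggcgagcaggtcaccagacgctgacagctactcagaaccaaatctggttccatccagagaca
Hspa1b, chr17:34959189-34959488, GRCm38.p6, minus strand: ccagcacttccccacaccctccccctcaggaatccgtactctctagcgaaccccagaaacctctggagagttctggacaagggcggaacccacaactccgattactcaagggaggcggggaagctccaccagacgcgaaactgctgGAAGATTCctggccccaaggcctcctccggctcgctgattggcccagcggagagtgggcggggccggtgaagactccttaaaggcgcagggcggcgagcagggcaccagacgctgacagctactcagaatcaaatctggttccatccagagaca
The windows differ at 4 of 300 bases. Of all 50-base words in the Hspa1a transcript, 58.8% also occur in Hspa1b, but 0% of those in its last 500 bases do. Reads of that length from this end of Hspa1a can thus be told from Hspa1b. The end of Hspa1b and other read lengths were not compared. On the other strand, Gm20481 overlaps 19.0% of the exonic bases of Hspa1a and none of Hspa1b.

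Hspa1a was 1406, 1322 and 966 in shControl and 2185, 901, 3218 and 1942 in shBrca2 libraries. Hspa1b was 819, 772 and 597 in shControl and 1466, 514, 2161 and 1345 in shBrca2 libraries. For both genes, 3 shBrca2 libraries lay above all shControl libraries and shBrca2 replicate 2 lay below all of them. The ratio of Hspa1a to Hspa1b stayed between 1.44 and 1.75. Their coefficients of variation across shBrca2 libraries, 46.1% and 49.3%, were the highest of the 64 members with a mean over 20.

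Hspa1a had a log2 fold change of 0.74 (SE 0.33, 95% interval 0.09 to 1.39, DESeq2 adjusted p = 0.20) and Hspa1b one of 0.91 (SE 0.35, 95% interval 0.21 to 1.60, adjusted p = 0.12). Neither was called. Without shBrca2 replicate 2, both were called, at 0.99 (adjusted p = 0.00084) and 1.18 (adjusted p = 1.5e-05). Depending on the alternative, Hspa1a had an adjusted p between 0.00084 and 0.8, and Hspa1b between 1.5e-05 and 0.72. Immediate early genes, which tissue digestion can induce together with Hspa1a and Hspa1b, summed to 89706, 73851 and 98040 in shControl and 65999, 92772, 85127 and 76605 in shBrca2 libraries over 16 genes. Among shBrca2 libraries, replicate 2 had the highest of these sums and the lowest Hspa1a and Hspa1b. The part of tissue digestion in the levels of Hspa1a and Hspa1b was not tested.

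**Figure D3:**
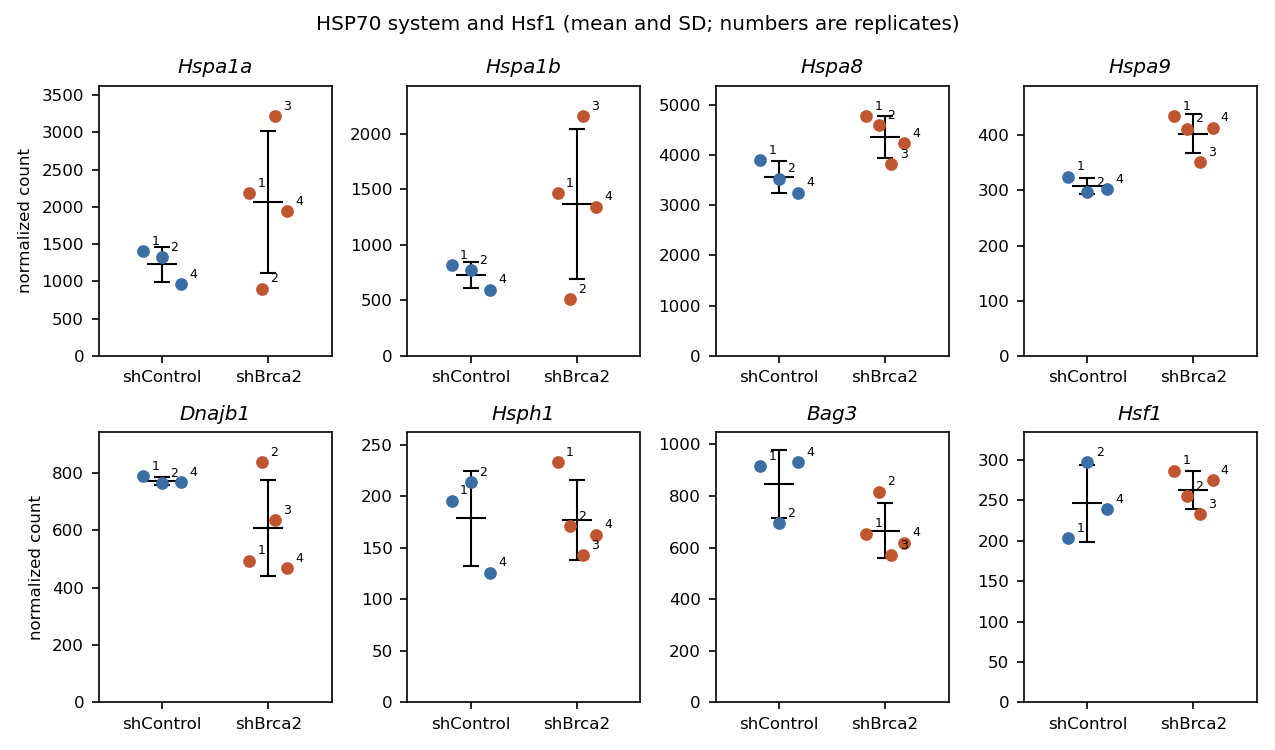
Normalized counts (vertical axes, from 0) of 4 HSP70 genes, Hsph1, the partners Dnajb1 and Bag3, and Hsf1; each point is a library with its replicate number, and lines give the group mean and SD. Hspa1a and Hspa1b share one pattern, with shBrca2 replicate 2 at 901 and 514 below every shControl library, whereas in Dnajb1 that library is the highest, at 836.

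Hspa8 (HSC70), the constitutive member and the most abundant gene of the set by count, was 3898, 3526 and 3249 in shControl and 4773, 4591, 3817 and 4236 in shBrca2 libraries. The ranges met at one library of each group. The log2 fold change was 0.29 (SE 0.14, 95% interval 0.01 to 0.57, DESeq2 adjusted p = 0.26). Hspa9 (mortalin), the mitochondrial HSP70, was named after its values were seen. It was 325, 297 and 302 in shControl and 435, 412, 352 and 414 in shBrca2 libraries, without overlap, with a log2 fold change of 0.39 (SE 0.15, adjusted p = 0.10), and was not called. Hspa4, an HSP110-type nucleotide exchange factor, had a log2 fold change of -0.49 (SE 0.29, adjusted p = 0.38). Hsph1 averaged 179 ± 46.2 in shControl and 177 ± 38.9 in shBrca2 CAFs, with a 95% interval of the log2 fold change from -0.49 to 0.48.

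Hspa12b (chr2:131127412-131145985, plus strand), a distant HSP70 relative known from endothelium, was 26.5, 11.4 and 23.3 in shControl and 6.88, 6.41, 10.4 and 10.2 in shBrca2 libraries. All shBrca2 values lay below the lowest shControl value. It fell by 1.34 on the log2 scale (SE 0.49, 95% interval -2.31 to -0.38, DESeq2 adjusted p = 0.07), on 6 to 31 reads per library. The call was lost without shControl replicate 1 (adjusted p = 0.46), shControl replicate 4 (0.33), shBrca2 replicate 1 (0.3), shBrca2 replicate 2 (0.27) or shBrca2 replicate 4 (0.16), and it held in 7 of the 13 alternatives that gave an adjusted p. Of its exonic bases, 36.1% lie in exons of Adissp on the other strand. Among the 6 endothelial markers listed, none of which was called, the sums overlapped, at 148 to 277 in shControl and 214 to 282 in shBrca2 libraries. Pecam1 (CD31, the antigen sorted against) averaged 8.26 normalized counts in shControl and 0.576 in shBrca2 CAFs, with 0 in shBrca2 replicates 3 and 4. Its log2 fold change was -3.6 (SE 1.22, DESeq2 adjusted p = 0.031). It was not called because its mean of 3.87 was under the threshold of 5. Tek averaged 15.5 and 5.6. For Pecam1 and Tek all shBrca2 values lay below all shControl values, on 0 to 14 and 4 to 33 reads per library. Plvap averaged 49.4 and 33.5, with overlap. The other markers had higher means in shBrca2 CAFs, at 65.8 and 93.3 for Kdr, 14.5 and 23.8 for Egfl7 and 52.3 and 92.5 for Esam. Whether residual endothelial cells account for Hspa12b was not tested.

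HSP90 matures kinases, steroid receptors and other clients late in folding, and also restrains Hsf1. Stip1 (HOP) passes clients from HSP70 to HSP90. Of these 3 genes none was called by DESeq2 or edgeR, and 0 had an unadjusted p under 0.05. Hsp90ab1, the constitutive form, was 2687, 3479 and 2951 in shControl and 3018, 2974, 3316 and 3098 in shBrca2 libraries. The shBrca2 values lay inside the shControl range. Its log2 fold change was 0.03 (SE 0.14), and the 95% interval of -0.25 to 0.31 lies within 0.5 of no change. Of its exonic bases, 34.9% lie in exons of other genes on the other strand. Hsp90aa1, the inducible form, averaged 60.6 ± 20.8 and 53.1 ± 12.0 (log2 fold change -0.19, SE 0.31, DESeq2 adjusted p = 0.84). Stip1 was 355, 802 and 351 in shControl and 850, 655, 458 and 680 in shBrca2 libraries. shControl replicate 2 alone stood in the shBrca2 range, and the log2 fold change went from 0.40 (adjusted p = 0.57) to 0.91 (adjusted p = 0.0066) without it. Predicted genes on the other strand overlap 24.1% of its exonic bases.

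CCT (TRiC) is a ring of 8 different subunits that folds actin and tubulin, and all 8 were measured. DESeq2 and edgeR called none, while 4 had an unadjusted p under 0.05, beside 2262 of all 12771 genes. All 8 log2 fold changes were positive, from 0.17 (Cct3) to 0.40 (Cct6a), with a median of 0.36. Cct2 and Tcp1, named after their values were seen, and Cct6a did not overlap between groups. Cct2 was 671, 692 and 625 in shControl and 884, 814, 805 and 908 in shBrca2 libraries. Cct6a was 396, 436 and 374 in shControl and 604, 525, 487 and 505 in shBrca2 libraries. Tcp1 was 641, 467 and 527 in shControl and 755, 746, 663 and 658 in shBrca2 libraries. The gap between groups was small, and for Tcp1 (641 against 658) it was less than the shControl SD of 88.2.

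Cct2 (log2 fold change 0.36, SE 0.13, DESeq2 adjusted p = 0.075) and Cct6a (0.40, SE 0.15, adjusted p = 0.096) passed the adjusted p and missed the fold threshold of 0.5. Cct7, the most abundant subunit by count, had a log2 fold change of 0.28 (SE 0.19, adjusted p = 0.50). All subunits stayed positive in each alternative, with medians of 0.30 to 0.47, the highest with total-count size factors, where Cct6a was called. The subunits of 1 complex are not independent of each other. Summed over the complex, the normalized count was 4735, 5113 and 4571 in shControl and 6356, 5608, 5518 and 6104 in shBrca2 libraries.

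**Figure D4:**
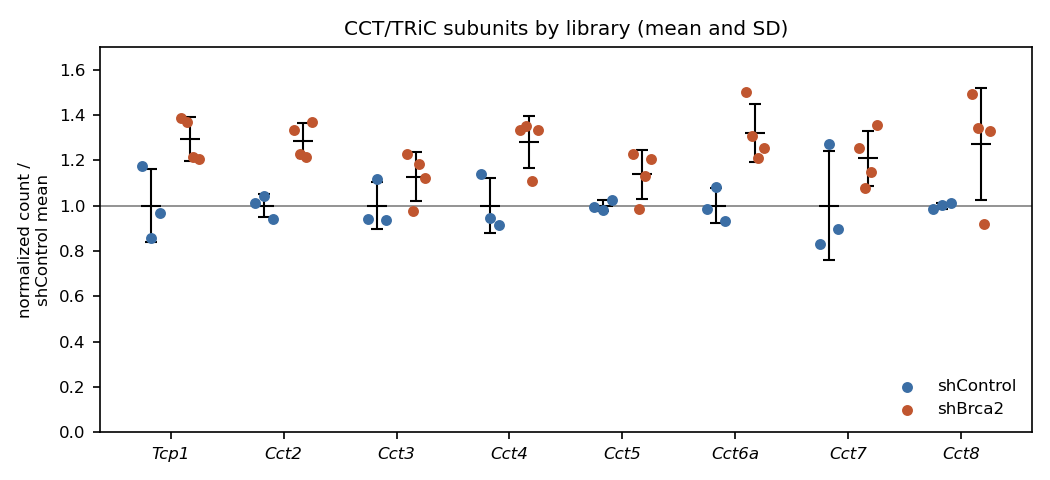
Normalized counts of the 8 CCT subunits divided by each subunit's shControl mean (vertical axis, from 0); each point is a library, with the group mean and SD, and the horizontal line marks the shControl mean. Every shBrca2 mean lies above that line, and Cct2, Cct6a and Tcp1 have no overlap between groups.

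The mitochondrial chaperonin Hspd1 (HSP60) and its lid Hspe1 (HSP10) lie on opposite strands of chromosome 1. They overlap at their starts, with RefSeq start sites 95 bases apart. In GENCODE they share 143 exonic bases, 3.83% of those of Hspd1 and 8.03% of those of Hspe1. Hspd1 averaged 262 ± 16.7 in shControl and 294 ± 50.3 in shBrca2 CAFs (log2 fold change 0.17, SE 0.18, DESeq2 adjusted p = 0.72). Hspe1 averaged 456 ± 94.4 and 480 ± 19.3 (0.07, SE 0.18, adjusted p = 0.91). DESeq2 and edgeR called 0 of the pair, and 0 had an unadjusted p under 0.05.

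J-proteins deliver clients to HSP70 and stimulate its ATPase. None of the 3 Dnaja or 7 Dnajb genes was called by DESeq2 or edgeR, and 0 had an unadjusted p under 0.05. Dnajb1 (HSP40), a classical Hsf1 target that works with Hspa1a, was 788, 763 and 767 in shControl and 494, 836, 634 and 467 in shBrca2 libraries. All shBrca2 libraries but replicate 2 were lower than the shControl libraries, the reverse of Hspa1a. The log2 fold change was -0.34 (SE 0.22, adjusted p = 0.44), and -0.55 without that library (adjusted p = 0.054). At the ends of their families stood Dnaja2 (0.27), Dnaja4 (-0.34), Dnajb6 (0.34) and Dnajb2 (-0.35), none past the test.

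Of the 23 Dnajc genes, a mixed family tied to many compartments, 1 was called higher and none lower, beside 3.77% and 5.27% of all genes. Dnajc6 (auxilin), which uncoats clathrin vesicles and is best known from neurons (chr4:101496648-101642799, plus strand), had 2, 0 and 0 reads in shControl and 11, 10, 3 and 19 in shBrca2 libraries. Each shBrca2 library thus exceeded the shControl libraries, at very low counts. Pooled, 2 reads stood against 43, and corrected for library size this is a ratio of 14.5 with an exact 95% interval of 3.77 to 123, which covers counting error only. The DESeq2 adjusted p was 0.0054. Its mean of 5.93 normalized counts passed the threshold of 5 only through the shBrca2 libraries, where it was high (shControl mean 0.569), so its call is no independent support, and the edgeR filter removed it. Dnajc17, of the spliceosome, was 35.0, 36.7 and 37.0 in shControl and 22.4, 18.7, 29.4 and 30.5 in shBrca2 libraries, apart but not called (log2 fold change -0.56, SE 0.33, DESeq2 adjusted p = 0.38). Dnajc15, of mitochondria, was also apart without a call (0.31), and Dnajc8, the most abundant of the family by count, had 0.05.

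BAG proteins release nucleotide from HSP70. DESeq2 and edgeR called 0 of 6, with 0 at an unadjusted p under 0.05. Bag3, an Hsf1 target that links HSP70 to Hspb8, was 915, 696 and 930 in shControl and 654, 817, 570 and 619 in shBrca2 libraries. The ranges overlapped (log2 fold change -0.35, SE 0.19, DESeq2 adjusted p = 0.32). Bag1 had a log2 fold change of 0.20 (SE 0.13, adjusted p = 0.46).

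Summed over the 74 members, normalized counts were 26696, 28492 and 28247 in shControl and 34550, 32250, 35590 and 31919 in shBrca2 libraries. The groups were apart, although few members were called, because a handful of abundant genes carry the sum. Of the mean difference of 5766 normalized counts, Cryab held 21.1%, Hspb1 19.8%, the 8 CCT subunits 18.9%, Hspa1a 14.4%, Hspa8 13.8% and Hspa1b 11.1%. Of these only Cryab was called. Hspb8 had the largest share in the other direction, at -5.4%.

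Genes that work with the chaperones but lie outside the families were counted in 4 lists. DESeq2 and edgeR called 0 of 18 HSP90 cochaperones, 0 of 5 listed HSP70 cofactors and 0 of 6 prefoldin subunits, with 0 at an unadjusted p under 0.05 in each, and the medians of their log2 fold changes were 0.07, 0.08 and 0.16. Of 12 Hsf1 partners and targets of other families, 2 were called, both higher, beside 3.77% of all genes called higher and 9.04% in either direction. The median log2 fold change of these 12 was 0.00, with 6 positive and 6 negative values, among them Serpinh1 (-0.28) and Dedd2 (-0.44), neither called. The list was chosen by hand with earlier results of these data known. The study had already reported Clu as higher in these CAFs. Hmox1, which degrades haem and is chiefly a target of Nrf2, was 345, 307 and 302 in shControl and 576, 594, 390 and 808 in shBrca2 libraries (log2 fold change 0.90, SE 0.23, DESeq2 adjusted p = 0.005). Clu, a secreted chaperone, was 2399, 3646 and 6463 in shControl and 13694, 9647, 16209 and 12383 in shBrca2 libraries (1.64, SE 0.30, adjusted p = 2.1e-05).

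Promoters of the members were searched for heat shock elements of 2 units (GAANNTTC or TTCNNGAA) and of 3 units (GAANNTTC extended by NNGAA, or TTCNNGAA extended by NNTTC, so that every 3-unit match contains 2-unit matches), on both strands. RefSeq windows of 300 bases were matched for 56 of the 74 members, 72 windows in all. Cryab, Hspb2 and Hsf1 have no entry. A 3-unit element lay in 6 member windows (8.33%), beside 0.603% of all 32851 windows, and a 2-unit element in 17 (23.6%), beside 15.1%. The 6 windows belong to 4 genes, Dnajb6, Hspd1, Hspe1 and Hsph1, but cover only 3 separate stretches of the genome: Hspd1 and Hspe1 share one, and Dnajb6 and Hsph1 each have overlapping windows around the same element. Alternative windows of 1 gene are also counted separately in the share of all windows. Hspb6 has 2 windows, and the one not shown (chr7:30552290-30552589), which spans the start of the gene in RefSeq, holds no element. Hspe1 and Hsph1 are shown for their 3-unit elements and Hspb6, the called member with a window and an element, for its 2-unit element, each in capitals.
Hspe1, chr1:55087898-55088197, GRCm38.p6, plus strand: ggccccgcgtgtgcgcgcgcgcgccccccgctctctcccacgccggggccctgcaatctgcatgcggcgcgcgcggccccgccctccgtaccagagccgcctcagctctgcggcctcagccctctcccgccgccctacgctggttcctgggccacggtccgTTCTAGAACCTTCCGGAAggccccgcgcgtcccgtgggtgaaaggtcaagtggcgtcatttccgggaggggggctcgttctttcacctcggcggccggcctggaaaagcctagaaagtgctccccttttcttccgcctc
Hsph1, chr5:149636266-149636565, GRCm38.p6, minus strand: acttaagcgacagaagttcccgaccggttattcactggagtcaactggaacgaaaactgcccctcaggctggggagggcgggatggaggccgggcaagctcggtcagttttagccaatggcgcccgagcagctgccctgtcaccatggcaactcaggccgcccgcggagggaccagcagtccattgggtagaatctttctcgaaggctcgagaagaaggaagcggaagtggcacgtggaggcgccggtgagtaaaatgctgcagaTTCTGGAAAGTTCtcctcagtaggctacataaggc
Hspb6, chr7:30553051-30553350, GRCm38.p6, plus strand: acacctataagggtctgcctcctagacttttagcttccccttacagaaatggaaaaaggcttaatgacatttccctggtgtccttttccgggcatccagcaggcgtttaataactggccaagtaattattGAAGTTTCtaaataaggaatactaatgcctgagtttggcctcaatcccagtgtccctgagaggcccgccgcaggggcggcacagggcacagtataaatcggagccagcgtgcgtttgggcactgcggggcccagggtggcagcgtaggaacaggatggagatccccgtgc
In Hspe1 the capitals hold 2 overlapping 3-unit matches. The 4 genes with a 3-unit element had a median log2 fold change of 0.12, with 0 called, and the 50 other members with a window and a mean over 5 had a median of 0.00, with 3 called. These counts describe letters in a window and not binding. The 50 include Hspa1a and Hspa1b, which had a 2-unit element only, and Dnajb1, which had no element in its windows. The sets thus do not separate Hsf1 targets from other members.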

How the data were processed

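CAF libraries were made from poly(A) RNA with a variant of MARS-seq, which reads transcript 3' ends, so counts were not divided by length, and levels of different genes are compared only as counts. The authors deposited raw counts per gene symbol, not normalized. The submitters' processing notes name bcl2fastq, cutadapt, STAR 2.4.2a, HTSeq, DESeq2 and mm10; which annotation was used, whether strand was kept and whether molecular barcodes were collapsed is not given in the sources used here, so PCR copies may be included. Groups follow the silencing status in the labels.

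DESeq2 1.42.0 (R 4.3.3) was run on all 12771 genes and 7 libraries comparing models with and without the group by a likelihood ratio test, and p-values were adjusted over all genes (Benjamini-Hochberg). Fold changes were not shrunken. Alternatives were edgeR 4.0.16 (quasi-likelihood, TMM), the Wald test, TMM or total-count size factors, a filter of 10 counts in 3 libraries, no independent filtering, a replicate block, each library left out in turn, and no fold threshold. The code was tested on simulated data.

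Members and lists were chosen with earlier results of these data known. Named were the 4 marker genes Cryab, Hspa1a, Hspa1b and Hsf1, called members, and in each role group the most abundant member and those with the largest and smallest fold change over a mean of 20; others were named after their values were seen. Positions and promoters came from RefSeq on GRCm38.p6, which shares the coordinates of mm10, and exon overlaps from GENCODE vM39 on GRCm39. Of 12 epithelial, 10 mesothelial, 11 pericyte and smooth muscle and 9 endothelial markers, those outside the count table were not analysed here. Of the lists not described further, immune markers (7 listed) had 2 called higher and 1 lower. Acinar markers (10) had 1 called higher and 5 lower. Over all genes 3.77% were called higher and 5.27% lower. Schwann and glial markers (6) had none called, with 1 at an unadjusted p under 0.05.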

Additional observations from a re-analysis of the deposited data

How the results depend on the processing

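The number of members called higher was 4, and 3 to 6 when 1 library was left out, with the most without shBrca2 replicate 2; total-count size factors gave 7 (adding Hspa1a, Cct6a and Hspa9), the other scalings, tests and filters 3 or 4, and no fold threshold 6 (adding Cct2 and Cct6a). The number called lower was 1, and 0 to 2 without 1 library; it was 0 with total-count size factors. The members' median log2 fold change of 0.07 became 0.19 with total-count size factors, where the median of all genes moved to 0.12, and lay between 0.05 and 0.15 without 1 library. With the replicate number as a block, 3 members were called higher and 0 lower, and over all genes 491 were called in place of 1154. Same-numbered libraries did not deviate together (correlations of -0.091, -0.127 and -0.14), so the numbers were not taken to pair the samples. Of 430 values of the 31 named members under the alternatives, 410 kept direction and call, 8 gained a call, 6 lost it and 6 changed sign. The sign changed, at values near 0, when 1 library was left out: Hsf1 ran from -0.03 (without shControl replicate 1) to 0.25, Hsp90aa1 from -0.40 to 0.09 (without shControl replicate 1), Hsp90ab1 from -0.05 (without shControl replicate 1; -0.01 without shBrca2 replicate 3) to 0.14, Dnajc8 from -0.01 (without shControl replicate 2) to 0.11 and Hspe1 from -0.09 (without shControl replicate 4) to 0.17. The cause was not tested. Dnajc6 had no adjusted p with the block or without shBrca2 replicate 4, nor Hspa12b with the block. Members under about 30 reads per library, Dnajc6 and Hspa12b among them, are limited by depth.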

Other observations

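The spread between libraries differed widely among the members. Across the 64 members with a mean normalized count over 20, the median coefficient of variation was 14.7% in shControl and 12.3% in shBrca2 CAFs. Cct8, a CCT subunit, was at 460, 467 and 472 in shControl libraries but between 428 and 697 in shBrca2 libraries. Dnajb1 was at 788, 763 and 767 in shControl libraries and between 467 and 836 in shBrca2 libraries. Both genes were chosen after their values were seen, and the difference in spread was not tested.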
